A study of Homo sapiens with 12 samples.

Results

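Open chromatin was compared between MDA-MB-453 cells carrying the K303R form of estrogen receptor alpha and MDA-MB-453 cells carrying the wild-type (WT) form, both grown without doxycycline (Dox). The members are genomic regions with a peak in both libraries of 1 line (untreated and estradiol) and in neither library of the other. The 4 peak lists were cut to the length of the shortest, 39522 summits on chromosomes 1 to 22 and X, and peaks overlapping by at least 1 bp were merged. This gave 48803 merged regions, of which 1439 (2.95%) were open in both K303R libraries and neither WT library (K303R-only). Another 1612 (3.3%) were open in both WT libraries and neither K303R library (WT-only). Regions open in all 4 libraries numbered 16588.

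MDA-MB-453 is an established breast cancer line with luminal features and a strong androgen receptor program. The series used ATAC-seq, in which a transposase cuts accessible DNA and peaks of reads mark open chromatin, on 3 lines that differ in an inducible ectopic receptor: WT, K303R and Y537S. Each line was sampled untreated, with 1 nM estradiol (E2), with 2 ug/mL Dox and with both agents, for 2 days, with 1 library per line and treatment. All 4 libraries compared here lacked Dox, so the ectopic receptor was not induced by design, and whether any was made without Dox was not measured. The 4 groups are WT untreated, WT with E2, K303R untreated and K303R with E2. Neither the labels nor the design text says whether a line is 1 clone or a pool. Estrogen receptor alpha is a hormone-activated transcription factor that binds DNA at estrogen response elements. K303R replaces a lysine of its hinge, and Y537S replaces a tyrosine of its ligand-binding domain, which is known to make the receptor active without hormone.

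The lists held 47190 summits in WT untreated, 78022 in WT E2, 39522 in K303R untreated and 61723 in K303R E2. K303R untreated was the weakest of the 4. Over the shared regions its median summit pileup exceeded its own background 27.2-fold, while WT untreated, WT E2 and K303R E2 reached 56.0-fold, 64.2-fold and 70.9-fold. A summit pileup is the number of reads stacked at a peak's highest point. A pileup of 0 means no listed peak, not an absence of reads. The lowest listed pileups were 3, 4, 5 and 4 in WT untreated, WT E2, K303R untreated and K303R E2. Pileups of single regions are printed unscaled, and their medians over the shared regions were 8, 19, 12 and 15 in the same order. The cut kept peaks with a pileup of at least 4, 9, 5 and 7 in WT untreated, WT E2, K303R untreated and K303R E2. Of the peaks tied at that limit, 5823 of 9033 were kept in WT untreated, 1762 of 6148 in WT E2 and 482 of 7864 in K303R E2. They were drawn at random, and the other tied peaks count as absent. All 4 peak lists carry 1 shared tag in their peak names, as do the K303R Dox lists, while the WT Dox and Y537S lists carry others. The sources do not say what the tag marks. With 2 libraries against 2 no permutation p below 0.333 is possible, so counts and levels are described without a test. Intervals are exact (Clopper-Pearson) 95% binomial intervals and cover counting error only. The luminal identity held in all 4 libraries: of 12 luminal marker promoters, 7 (CLDN3, CLDN4, ERBB2, FOXA1, KRT8, SPDEF and XBP1) were open in all 4 and PIP was open in none. None of 12 basal, 8 immune and 3 fibroblast or endothelial marker promoters was open in any of the 4.

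Few promoters were line-specific, and the strongest of those in the promoter table used here are shown here because they are the members for which the DNA sequence at the open site could be read. Of the 15812 protein-coding promoters used here (RefSeq, GRCh38.p14, 250 bases before to 50 after the start), 95 (0.601%) lay in a K303R-only region and 191 (1.21%) in a WT-only region, against 5711 in regions open in all 4 libraries. The 250 bases before the start are printed 5′ to 3′ on the gene's strand, for the strongest line-specific promoters that overlap no annotated gene. Capitals mark matches on either strand to 8 motifs. The AP-1 site was searched as TGANTCA, the forkhead (FOX) site as TGTTTAC and the site of GATA factors as AGATAA. The cyclic AMP response element (CRE) was searched as TGACGTCA, the E-box as CACGTG, the GC box of SP factors as GGGCGG and the core letters of the CTCF site as CCCTC. The estrogen response element was searched as its full palindrome. SP and CTCF core matches can overlap. FAM8A1 (chr6:17600052-17600301, plus strand, hg38), RLIM (chrX:74614625-74614874, minus), ZFYVE27 (chr10:97736878-97737127, plus) and SUPV3L1 (chr10:69179984-69180233, plus) were K303R-only. PPP2R3A (chr3:135965478-135965727, plus), RIF1 (chr2:151409652-151409901, plus) and CACUL1 (chr10:118754971-118755220, minus) were WT-only.
FAM8A1: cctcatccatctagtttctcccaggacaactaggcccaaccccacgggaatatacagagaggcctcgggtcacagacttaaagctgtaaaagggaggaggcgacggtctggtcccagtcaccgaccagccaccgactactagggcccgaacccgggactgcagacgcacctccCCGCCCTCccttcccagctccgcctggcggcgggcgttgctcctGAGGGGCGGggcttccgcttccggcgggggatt
RLIM: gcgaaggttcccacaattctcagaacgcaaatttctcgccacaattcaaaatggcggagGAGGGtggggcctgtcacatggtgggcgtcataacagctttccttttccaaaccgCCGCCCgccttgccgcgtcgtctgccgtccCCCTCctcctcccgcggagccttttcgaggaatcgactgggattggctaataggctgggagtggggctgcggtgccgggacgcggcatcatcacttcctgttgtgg
ZFYVE27: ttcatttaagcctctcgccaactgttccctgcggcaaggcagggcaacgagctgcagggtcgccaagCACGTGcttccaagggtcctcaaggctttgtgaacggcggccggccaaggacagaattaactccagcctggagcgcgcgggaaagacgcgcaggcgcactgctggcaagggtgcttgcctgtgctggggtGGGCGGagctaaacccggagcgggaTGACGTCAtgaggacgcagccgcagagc
SUPV3L1: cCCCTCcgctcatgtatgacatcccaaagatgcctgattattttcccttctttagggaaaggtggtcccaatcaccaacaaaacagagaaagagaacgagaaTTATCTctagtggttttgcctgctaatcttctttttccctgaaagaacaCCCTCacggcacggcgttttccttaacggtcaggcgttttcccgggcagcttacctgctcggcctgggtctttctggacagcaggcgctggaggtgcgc
PPP2R3A: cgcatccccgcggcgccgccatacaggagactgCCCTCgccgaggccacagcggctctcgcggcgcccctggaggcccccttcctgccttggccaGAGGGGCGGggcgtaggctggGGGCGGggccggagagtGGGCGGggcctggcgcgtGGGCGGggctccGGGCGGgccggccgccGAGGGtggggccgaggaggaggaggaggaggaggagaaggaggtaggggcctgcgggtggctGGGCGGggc
RIF1: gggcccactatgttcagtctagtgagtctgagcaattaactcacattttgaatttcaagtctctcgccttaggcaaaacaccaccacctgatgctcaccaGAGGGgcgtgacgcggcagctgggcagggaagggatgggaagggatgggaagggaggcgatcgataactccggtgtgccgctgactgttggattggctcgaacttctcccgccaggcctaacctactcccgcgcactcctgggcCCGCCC
CACUL1: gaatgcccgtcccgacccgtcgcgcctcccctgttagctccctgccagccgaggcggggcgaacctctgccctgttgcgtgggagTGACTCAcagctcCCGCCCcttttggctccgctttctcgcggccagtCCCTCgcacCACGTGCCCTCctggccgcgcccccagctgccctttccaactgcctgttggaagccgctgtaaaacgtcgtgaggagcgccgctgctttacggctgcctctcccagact

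FAM8A1, a component of endoplasmic reticulum protein degradation, had the strongest K303R-only promoter among those used, with pileups of 13 and 19 in K303R untreated and E2 and 4 and 7 in WT untreated and E2. RLIM, an X-linked ubiquitin ligase, had 12 and 17 in the K303R libraries, no listed peak in WT untreated and 7 in WT E2. At SUPV3L1, a mitochondrial RNA helicase, the K303R pileups were 14 and 9 and the WT values were 0 and 7. At these 3 promoters the K303R values were higher within each treatment, an order favoured by the rule that chose the regions. The WT E2 library held a weaker peak at each. The WT untreated peak of 4 reads at FAM8A1 was tied at the list limit and left out by the random draw. PPP2R3A, a regulatory subunit of phosphatase 2A, had the strongest WT-only promoter among them, with 10 and 21 in WT and 0 and 7 in K303R. Its K303R E2 peak of 7 reads was likewise tied at the list limit. RIF1, which acts in replication timing and break repair, had 9 and 13 in WT and 0 and 5 in K303R. With Dox, RIF1 had 13 and 10 in WT and 13 and 9 in K303R, which overlap. The other named promoters were ZFYVE27, CTNS, SHPK (1 shared region with CTNS), SYTL1 and ARF5 for K303R, and CLK3-AS1, C18orf54 and STARD6 (1 shared region), KLC1, SPIN2B and CACUL1 for WT.

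Promoters on chromosome 8 were not used here, so the promoter counts, shares and ranks leave that chromosome out. None of the line-specific promoters used held an estrogen response element match, which 6 of all 15812 promoters did. The SP box occurred in 68.4% of K303R-only, 81.7% of WT-only, 74.8% of all-4 and 58.5% of all coding promoters. The CRE, the site of CREB-family factors, occurred in 2 of 95 K303R-only promoters (2.11%) and 12 of 191 WT-only promoters (6.28%), against 2.59% of all. AP-1 matches were in 8 of 95 K303R-only promoters (8.42%) and 9 of 191 WT-only promoters (4.71%), against 5.75% of all. GATA matches were in 6.32% and 3.14%, against 7.55% of all, FOX matches in 3.16% and 1.57%, against 2.62%, and E-boxes in 8.42% and 9.42%, against 8.87%. In all-4 promoters the shares were 3.40% (CRE), 3.24% (AP-1), 3.62% (GATA), 2.22% (FOX) and 10.5% (E-box). The K303R-only GATA share and the WT-only AP-1 share thus lay above the all-4 share and below that of all coding promoters. The CTCF core letters were common everywhere, in 78.9% and 80.6% against 76.6%. Promoters of both classes were GC-rich, with medians of 66% and 66.3% against 65.3% in all-4 and 62.7% in all coding promoters.

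The line-specific regions were weak peaks near the limit of the lists. K303R-only regions had median pileups of 8 in K303R untreated and 9 in K303R E2, with highest values of 19 and 21. In WT E2 the median over the same regions was 7, so most had a listed peak that the cut left out. At some strength 1231 of 1439 (85.5%) were listed in WT E2 and 311 (21.6%) in WT untreated. Peaks with the pileup of the limit, 9 in WT E2 or 4 in WT untreated, were left out by the random draw. Only 188 K303R-only regions (13.1%, interval 11.4 to 14.9%) had no listed peak of any strength in either WT library. WT-only regions had median pileups of 5 and 11 in WT untreated and E2, with highest values of 13 and 26. Those with 9 reads in WT E2 or 4 in WT untreated were at the limit and kept by the same draw. K303R E2 listed a weaker peak at 1114 of 1612 (69.1%), and 498 (30.9%, interval 28.6 to 33.2%) had none in either K303R library. The K303R untreated list was the shortest and was not cut, so a WT-only region could hold no listed peak there. With every listed peak counted instead, the classes numbered 571 and 3131, so the gap between the classes widened when lists of unequal length were used whole. Leaving out any 1 of the 4 libraries, which loosens the rule, gave 2828 to 7660 and 3098 to 8746. Both classes were short, with median lengths of 307 and 342 bp against 733.5 bp for regions open in all 4 libraries.

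Few line-specific regions lay at gene starts. A summit lay within 1 kb of a coding start in 164 of 1303 K303R-only regions (12.6%, interval 10.8 to 14.5%) and 287 of 1578 WT-only regions (18.2%), against 33.9% of regions open in all 4 and 21.4% of all merged regions. Start sites on chromosome 8 were not used here. About the same share lay inside a coding gene in both classes, 53.4% and 53.4%, close to the 52.9% of all merged regions, against 48.7% of regions open in all 4.

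Among the 12 strongest K303R-only regions, ranked by the smaller −log10 p of the 2 K303R libraries, 4 lay on chromosome 10 and 2 on chromosome 8. The strongest was 13.0 kb from RBM20, a muscle splicing factor (chr10:110852307-110852639, hg38), with 17 and 16 reads in K303R untreated and E2, no listed peak in WT untreated and 9 in WT E2. A region 31.9 kb from SLC37A3, a lysosomal transporter (chr7:140301607-140302013), had 17 and 15 against 0 and 7. Next to EIF3H, a subunit of translation initiation factor 3 (chr8:116639806-116640241), the values were 15 and 14 against 0 and 9. In all 3 the K303R values were higher within each treatment, an order favoured by the rule, and WT E2 held a weaker peak. The WT E2 peaks of 9 reads near RBM20 and EIF3H were tied at the list limit and left out by the random draw. With Dox and Dox plus E2 the RBM20 region had 17 and 25 in K303R and 14 and 21 in WT, which overlap. The SLC37A3 region then had 8 and 13 against 6 and 0, and the EIF3H region 12 and 7 against 9 and 0. The region near EPGN, which encodes the EGFR ligand epigen (chr4:74320479-74320889), had 15 and 12 against 0 and 8. Inside MYLK, myosin light chain kinase (chr3:123702112-123702422), the values were 15 and 12 against 0 and 8. The remaining regions were near TCL1A, GJA5 (connexin 40) and NOLC1, inside CPAMD8 and TRAPPC9, inside MGMT, and, far from any gene end, at chr10:78777651-78777956. A WT E2 peak of 9 reads at TRAPPC9 and a WT untreated peak of 4 at MGMT were also tied at the limit and left out. With Dox and Dox plus E2 the GJA5 region had 30 and 24 in K303R and 28 and 13 in WT, while the CPAMD8 region had 8 and 10 against 0 and 0.

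Among the 12 strongest WT-only regions 4 lay on chromosome 15, and none on chromosome 8 or 10. The strongest was 29.3 kb from GAB4 (chr22:17037200-17037752), with 12 and 15 in WT untreated and E2, no listed peak in K303R untreated and 7 in K303R E2. A region on chromosome 15 with no gene within reach (chr15:67937152-67937574) had 11 and 26 against 0 and 6. Inside ADIPOQ, which encodes the hormone adiponectin (chr3:186842962-186843466), the values were 11 and 15 against 0 and 7. FKBP4, an HSP90 co-chaperone of steroid receptors, held a region (chr12:2794609-2795140) with 11 and 14 against 0 and 5. That FKBP4 region had 20 and 11 in WT with Dox and Dox plus E2 and 17 and 19 in K303R, which overlap. Near GTF2IRD1 (chr7:74612453-74612845), near ETFA (chr15:76312668-76313159) and inside MCTP2 (chr15:94453162-94453589) neither K303R library without Dox had a listed peak, while WT had 11 and 15, 11 and 13, and 10 and 17. The others were near CSHL1, inside PPP2R3A, and, far from any gene end, on chromosomes 15, 1 and 2. At GAB4, ADIPOQ, CSHL1 and PPP2R3A the K303R E2 peak of 7 reads was tied at the list limit and left out by the random draw.

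**Figure D1:**
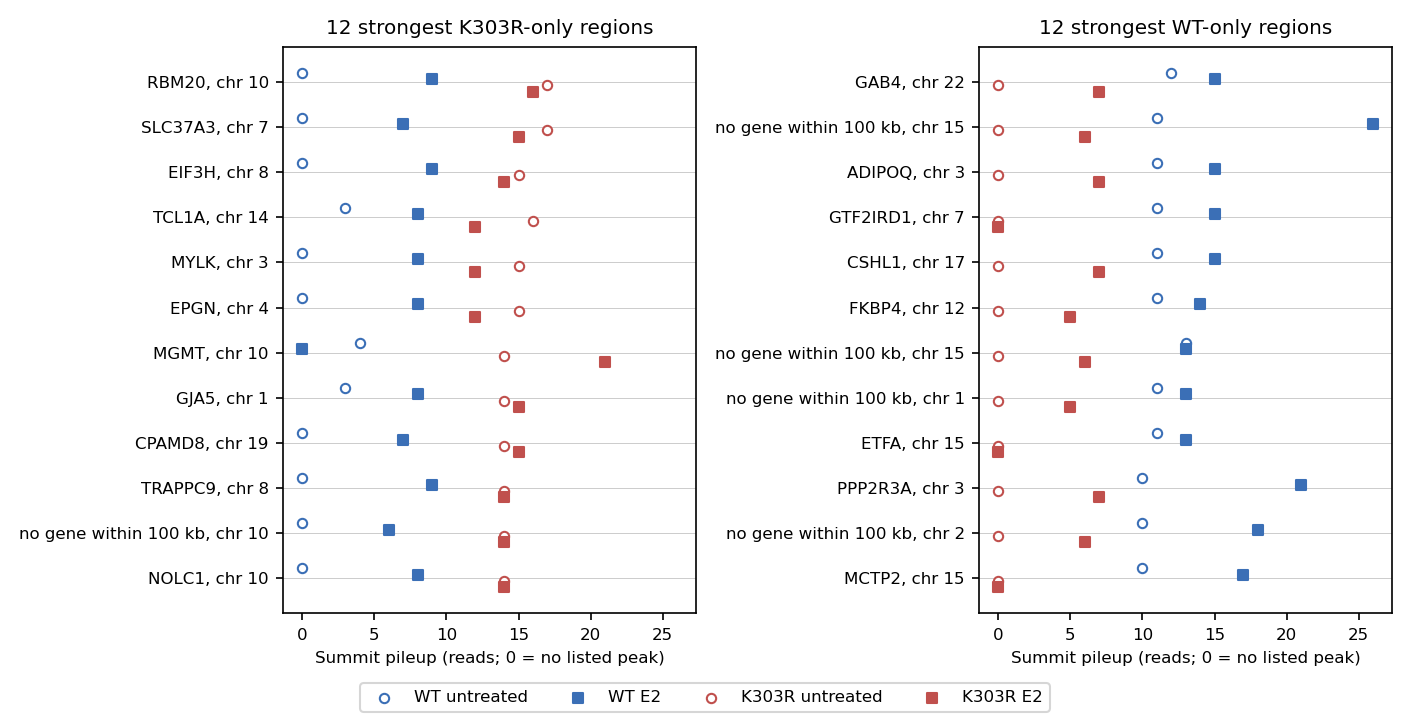
Summit pileup (reads, horizontal axis) of the 12 strongest K303R-only (left) and 12 strongest WT-only regions (right), labelled by the gene that holds the summit or the nearest gene end within 100 kb. Circles are untreated and squares E2 libraries, blue WT and red K303R. Most K303R-only regions keep a WT E2 peak of 6 to 9 reads, and most WT-only regions keep a K303R E2 peak of 5 to 7. K303R untreated is at 0 (no listed peak) in every WT-only region, which the rule requires because that list was not cut.

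Line-specific regions were unevenly spread over chromosomes. K303R-only regions made up 5.31% of merged regions on chromosome 8 (136 of 2563, interval 4.47 to 6.25%), 5.30% on chromosome 10 (106 of 2001, interval 4.36 to 6.37%) and 4.33% on chromosome 19 (80 of 1847), against 2.95% of all. Their lowest share was on chromosome 15, 1.27% (19 of 1499). The WT-only share was highest on chromosome 15, 6.40% (96 of 1499, interval 5.22 to 7.76%), against 3.3% of all, and lowest on chromosome 8, 1.33% (34 of 2563). On chromosomes 8 and 15 the order of the 2 classes was thus opposite. The intervals count regions as independent, with 1 library per line and treatment, and do not measure spread between lines. Without the cut to equal length the K303R-only share was 2.05% on chromosome 8 and 1.46% on chromosome 10, against 0.752% of all regions, and the WT-only share on chromosome 15 was 5.78%, against 4.13%. The extremes then moved: chromosome 21 had the highest WT-only share, 6.22% (43 of 691), and chromosome 18 the lowest K303R-only share, 0.243% (3 of 1235).

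**Figure D2:**
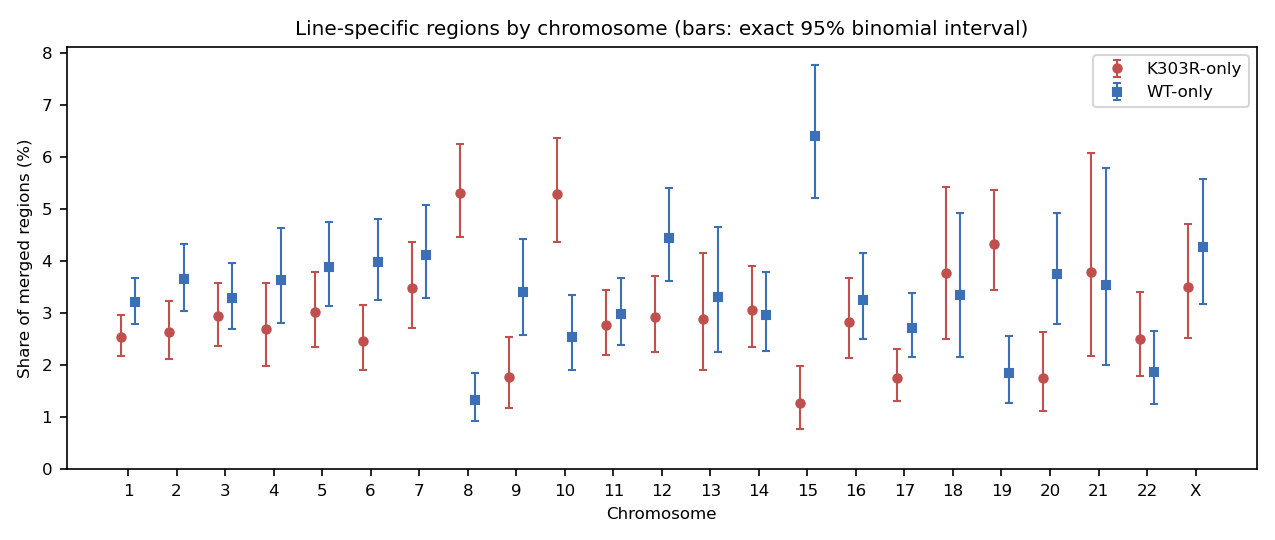
Share of merged regions (%, vertical axis) that were K303R-only (red circles) or WT-only (blue squares) on each chromosome, with exact 95% binomial intervals as bars. Chromosomes 8 and 10 hold the highest K303R-only shares (5.31% and 5.30%) and chromosome 15 the highest WT-only share (6.40%).

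The regions open in all 4 libraries, which belong to neither class, differed in level on the same chromosomes. Levels were compared as the log2 ratio of K303R to WT summit pileup, each library scaled to its own median, and are given as the median over a chromosome's regions minus the median over all chromosomes. The median over all chromosomes was -0.10 in the untreated pair, 0.01 in the E2 pair, 0 in the Dox pair and -0.07 in the Dox plus E2 pair. On chromosome 8 (826 regions) K303R was higher by 0.31 and 0.33 in the untreated and E2 pairs, and by 0.40 and 0.42 in the Dox and Dox plus E2 pairs, which the choice of regions did not use. On chromosome 15 (539 regions) the values were -0.16, -0.25, -0.27 and -0.25. Chromosome 8 was the highest and chromosome 15 the lowest of the 23 chromosomes in each of the 4 pairs. Chromosome 10 (621 regions) was at 0.15, 0.18, 0.14 and 0.14. The 20 other chromosomes ranged from -0.14 (chromosome 22, Dox pair) to 0.18 (chromosome 19, E2 pair). Chromosome 19 was at 0.10 and 0.18 without Dox and at 0 in both pairs with Dox.

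The Y537S line served as another reference, with the limit that its libraries carry another tag in their peak names. On chromosome 8 the K303R level over Y537S, relative to all chromosomes, was 0.35, 0.36, 0.46 and 0.47 in untreated, E2, Dox and Dox plus E2, and the WT level over Y537S was 0.02, 0.04, 0.01 and 0.02. On chromosome 15 the WT level over Y537S was 0.13, 0.14, 0.14 and 0.11, and the K303R level over Y537S was -0.04, -0.09, -0.09 and -0.13. So K303R was the line that stood apart on chromosome 8, and on chromosome 15 WT lay above and K303R below Y537S in all 4 treatments. Neither chromosome 15 level over Y537S was extreme among chromosomes. The K303R level was lower on chromosome 17, at -0.08, -0.11, -0.21 and -0.18 in the same order. The WT level was higher on chromosome 6, at 0.43, 0.42, 0.39 and 0.44. In peak lists, more opening per DNA copy and more copies of a segment cannot be told apart.

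**Figure D3:**
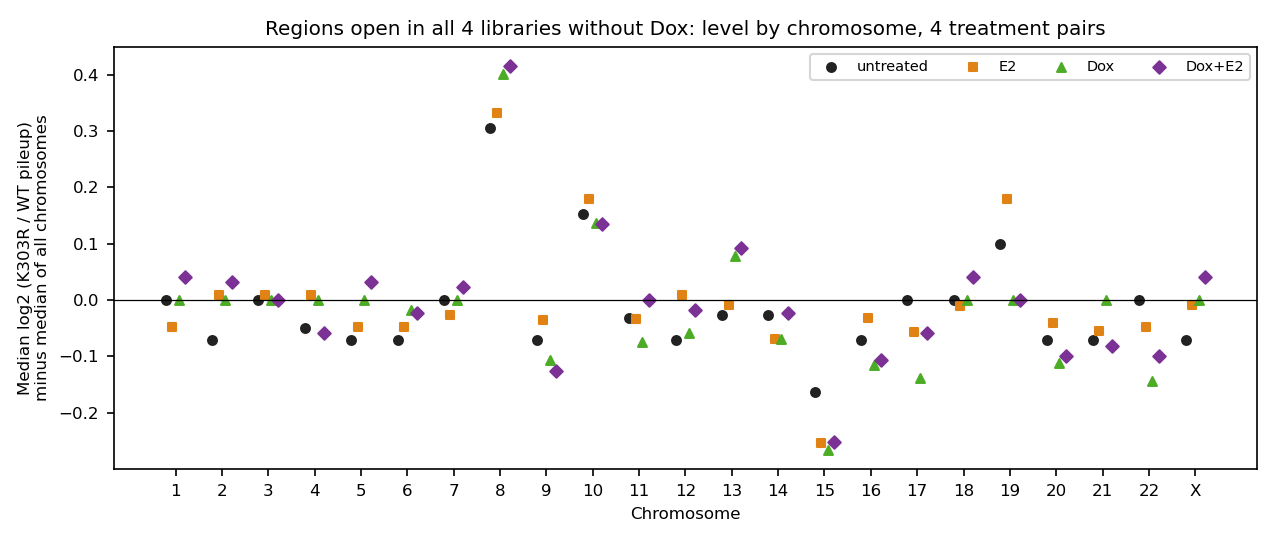
Median log2 ratio of K303R to WT summit pileup over regions open in all 4 libraries without Dox, minus the median of all chromosomes (vertical axis), for each chromosome and for the untreated, E2, Dox and Dox plus E2 pairs (symbols). Chromosome 8 is highest (0.31 to 0.42) and chromosome 15 lowest (-0.27 to -0.16) in every pair.

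On chromosomes 8 and 10 windows with a level difference lay next to each other. Of 451 windows of 5 Mb with at least 10 shared regions, 18 had K303R higher by at least 0.2 (log2, relative to all regions) in all 4 pairs, 13 of them among the 21 windows of chromosome 8 and 5 among the 24 of chromosome 10. Only 5 windows had WT higher by that much in all 4 pairs, all among the 12 of chromosome 15. The threshold was chosen after the values were seen. At 0.1, 28 windows were K303R-higher (17 on chromosome 8, 9 on chromosome 10, 2 elsewhere) and 13 WT-higher (6 on chromosome 15, 7 elsewhere). At 0.3, 6 (5 on chromosome 8, 1 on chromosome 10) and 1 (on chromosome 15) remained. On chromosome 8 the windows lay at 35 to 40 Mb, between 70 and 80 Mb, between 85 and 110 Mb, between 115 and 135 Mb and at 140 to 145 Mb. On chromosome 10 they lay between 80 and 95 Mb and between 110 and 120 Mb, on the long arm. The chromosome 15 windows, at 30 to 35, 55 to 60, 65 to 70, 75 to 80 and 85 to 90 Mb, did not adjoin each other. Across the 451 windows the mean of the pairs without Dox had a Pearson r of 0.51 with the Dox pair and 0.40 with the Dox plus E2 pair, where windows share the scaling of their libraries.

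**Figure D4:**
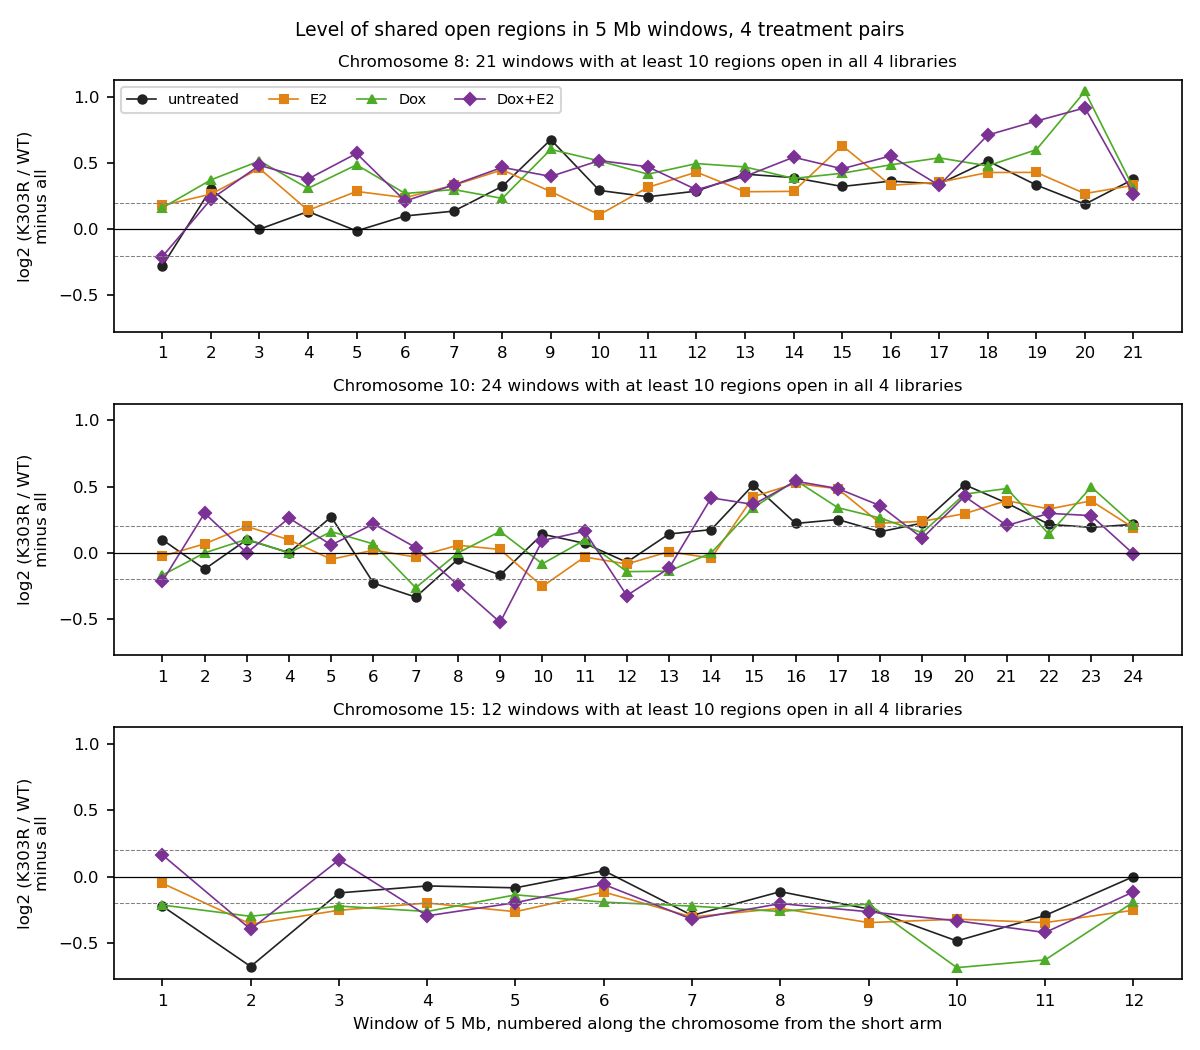
Median log2 ratio of K303R to WT pileup in 5 Mb windows (vertical axis, minus the median of all regions) numbered along chromosomes 8, 10 and 15 (horizontal axis), for the 4 treatment pairs; dashed lines mark 0.2 and -0.2. On chromosome 8 most windows are above 0.2 in all pairs (13 of 21), on chromosome 10 the raised windows are in the second part (5 of 24), and on chromosome 15 most are below 0.

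Single windows held clusters of line-specific regions. The window at 70 to 75 Mb of chromosome 15 had 22 WT-only regions among 85 merged regions (25.9%) and no K303R-only region. Its members included the CLK3-AS1 promoter region with 10 and 15 reads in WT untreated and E2 and 0 and 5 in K303R. A region 10.9 kb from CSK, the kinase that restrains SRC, had 8 and 20 against 0 and 6. Regions inside TLE3 (a transcriptional corepressor; 6 and 9 against 0 and 0), THSD4 and GRAMD2A, and near ARIH1, CYP11A1 and NPTN, also lay there. In the Dox libraries the CSK region had 12 and 12 in WT and 11 and 9 in K303R, and the region near ARIH1 had 20 and 11 against 13 and 13. The next window, 75 to 80 Mb, had 8 of 57 (14.0%), among them regions near ISL2 and ETFA and inside PEAK1, SCAPER and TMED3. The first 5 Mb of chromosome 17 had 12 of 81 (14.8%), with 3 at MNT, a MAX-binding repressor, with WT values of 7 and 20, 6 and 9, and 5 and 10. The windows at 115 to 120 Mb of chromosome 7 (5 of 30, 16.7%), with a region inside MET, the HGF receptor, and at 150 to 155 Mb of chromosome 2 (5 of 37, 13.5%), with the RIF1 promoter, completed the 5. The chromosome 2 window did not follow its level: over its 7 shared regions K303R was higher by 0.17 in the E2 pair and 0.26 in the Dox plus E2 pair, with -0.07 untreated and -0.06 with Dox.

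The 5 windows richest in K303R-only regions were at 45 to 50 Mb (5 of 34, 14.7%) and 120 to 125 Mb (16 of 152, 10.5%) of chromosome 8, at 95 to 100 Mb (13 of 126, 10.3%) and 125 to 130 Mb (6 of 49, 12.2%) of chromosome 10, and at 70 to 75 Mb of chromosome 18 (4 of 32, 12.5%). The chromosome 8 window at 120 Mb held 3 regions at COL14A1, a fibril-associated collagen, with K303R pileups of 11 and 11, 10 and 8, and 8 and 12 and WT pileups of 0 and 6, 0 and 8, and 0 and 7. It also held regions near MTSS1, ATAD2 and DEPTOR (an mTOR inhibitor; 5 and 11 against 0 and 0). The chromosome 10 window at 95 Mb included a region inside MORN4 with 12 and 10 in K303R and no listed peak in WT without Dox. With Dox and Dox plus E2 that MORN4 region had 26 and 28 in K303R and 24 and 0 in WT. The chromosome 18 window did not follow its level: its 5 shared regions had K303R lower by 0.33 in the E2 pair and 0.07 in the untreated pair.

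MGMT, the DNA repair enzyme that removes alkyl groups from guanine, lies in the chromosome 10 window at 125 Mb and had 3 K303R-only regions among the 6 regions within its span (chr10:129467241-129770983). At chr10:129703894-129704421 the pileups were 14 and 21 in K303R untreated and E2, 4 and 0 in WT, 7 and 5 in K303R with Dox and Dox plus E2, and no listed peak in WT with Dox. At chr10:129690686-129691270 they were 8 and 9 against 0 and 0, and with Dox 6 and 0 against 0 and 0. At chr10:129522307-129522684 they were 7 and 11 against 0 and 6, and with Dox 4 and 8 against 0 and 0. The 1 MGMT region open in all 4 (chr10:129689356-129690161) had 17 and 23 against 5 and 12, and with Dox 17 and 13 against 6 and 0. Of the 2 other regions, chr10:129467142-129467753 at the gene's start had 5 and 9 against 4 and 0, and with Dox 10 and 10 against 9 and 6. At chr10:129690361-129690586 WT untreated had 4 reads and K303R untreated no listed peak, where the K303R untreated list holds none below 5. K303R E2, Dox and Dox plus E2 had 13, 6 and 4 there, and WT had no listed peak in these treatments. The 3 K303R-only regions were chosen for their values without Dox. Y537S had 18 and 14 reads at the shared region without Dox and 0 and 4 with Dox. The 3 K303R-only regions were also listed in Y537S without Dox. In the order given above, Y537S untreated and E2 had 16 and 13, 7 and 8, and 19 and 13 reads there. With Dox and Dox plus E2 they had 0 and 0, 5 and 0, and 0 and 0.

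ELL, a transcription elongation factor on chromosome 19, had 4 K303R-only regions among 10, with K303R pileups of 5 to 8 untreated and 8 to 14 with E2 and WT pileups of 0 to 4 and 5 to 8. TRAPPC9, a subunit of a vesicle tethering complex on chromosome 8, had 4 of 28, KIAA1217 on chromosome 10 had 4 of 28, ABLIM1 on chromosome 10, an actin-binding protein, had 3 of 17, and TSNARE1 on chromosome 8 had 3 of 20. NOS1AP, an adaptor of neuronal nitric oxide synthase, had 3 of 9 and also 1 WT-only region. NEDD4L, a ubiquitin ligase, was named in both directions, with 4 K303R-only and 4 WT-only regions among 26. KALRN, a guanine nucleotide exchange factor, had the most WT-only regions, 5 of 29. They had 4 to 5 reads in WT untreated, 10 to 12 in WT E2, no listed peak in K303R untreated and 4 to 7 in K303R E2. The K303R untreated list holds no peak below 5 reads. All 3 regions of SP4, a zinc finger factor that binds GC boxes, were WT-only, with 5 and 11, 8 and 10, and 8 and 11 in WT and 0 and 0, 0 and 7, and 0 and 6 in K303R. CCDC91, GRAMD2A, PCIF1 and TMEM132B had 2 WT-only regions of 3 each.

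Differences in level among the shared regions were rare. At least 2-fold in both pairs without Dox, K303R was higher in 23 of 16588 regions (0.139%), 10 of them on chromosomes 8 and 10, and WT was higher in 18 (0.109%), 6 of them on chromosome 15. These regions were chosen by their values without Dox. In the Dox plus E2 pair 14 of 15 K303R-higher regions with a peak in both lines kept the direction, and 11 of 17 did in the Dox pair. Of the WT-higher regions 10 of 16 and 10 of 18 did. Among all shared regions with a peak in both lines, K303R was above WT in 45.9% in the Dox plus E2 pair and 44.8% in the Dox pair. FBXO32, a muscle-wasting ubiquitin ligase on chromosome 8 (chr8:123537571-123538100), had 31, 30, 34 and 38 reads in K303R untreated, E2, Dox and Dox plus E2 and 7, 17, 13 and 12 in WT, with log2 ratios of 1.56, 1.16, 1.39 and 1.28. The K303R values at FBXO32 did not overlap the WT values in any treatment. VGLL4, a TEAD cofactor (chr3:11600435-11601107), had 26 and 28 against 5 and 12 without Dox (log2 ratios 1.79 and 1.56), but 24 and 29 against 21 and 16 with Dox (0.19 and 0.47). A region 4.4 kb from FRAT2, a WNT pathway protein on chromosome 10, had ratios of 1.79, 1.48, 0.91 and 1.03. Among WT-higher regions, VASN had ratios of -1.22, -1.42, -0.44 and -0.90, and TMEM62 on chromosome 15 turned from -1.72 and -1.18 to 1.22 and 1.31 with Dox. The region at ID2, a helix-loop-helix inhibitor, went from -1.26 and -1.16 to -0.21 and -0.16. These genes were picked by size after the values were seen.

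The libraries with Dox were not used to choose the regions. They differed between the lines over all merged regions too: 47.5% and 42.0% of all 48803 had a peak in WT Dox and Dox plus E2 and 53.2% and 53.1% in K303R Dox and Dox plus E2. K303R-only regions had a peak in 45.7% and 48.4% of cases in K303R Dox and Dox plus E2 (each list cut to 39522 summits), against 32.3% and 26.1% in WT Dox and Dox plus E2. On chromosomes 8 and 10 the gap was wider, 52.5% and 54.1% against 28.1% and 16.9% of 242 regions, and all merged regions there had 53.5% and 54.7% against 40.1% and 34.9%. Outside chromosomes 8, 10 and 15 it was 44.4% and 47.4% against 33.2% and 28.0% of 1178 regions, beside 53.2% and 52.9% against 48.0% and 42.5% of all merged regions. Of WT-only regions 40.7% and 32.8% had a peak in WT Dox and Dox plus E2 and 40.9% and 39.0% in K303R. The shares of both classes were below those of all merged regions in each of these 4 libraries. The K303R share minus the WT share was larger for K303R-only and smaller for WT-only regions than for all merged regions, in Dox and in Dox plus E2. On chromosome 15 the WT-only values were 51.0% and 38.5% in WT and 39.6% and 34.4% in K303R, with overlapping intervals over 96 regions, beside 57.6% and 49.3% in WT and 53.0% and 52.9% in K303R for all merged regions. The WT Dox lists carry another tag in their peak names than the WT lists without Dox, and its part in these values was not tested. Y537S untreated and E2 held a peak at 52.3% and 52.3% of K303R-only and 46.0% and 45.3% of WT-only regions, and Y537S Dox and Dox plus E2 at 29.6% and 29.3% of K303R-only and 30.3% and 28.2% of WT-only regions. Of all merged regions 56.2%, 56.7%, 40.5% and 40.5% had a peak in Y537S untreated, E2, Dox and Dox plus E2.

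**Figure D5:**
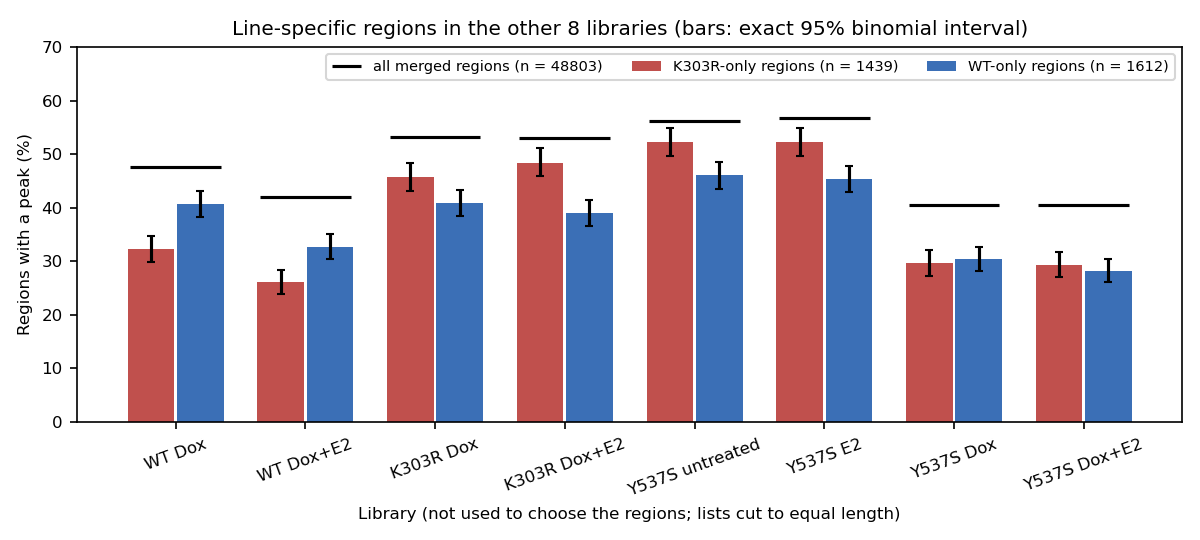
Share of the 1439 K303R-only (red) and 1612 WT-only regions (blue) with a peak (%, vertical axis) in each of the 8 libraries not used to choose them, lists cut to equal length, with exact 95% binomial intervals; black lines give the share of all merged regions. All bars lie below the black line of their library, which is at 47.5% and 42.0% in WT and 53.2% and 53.1% in K303R with Dox, and the K303R-only bars differ more between these lines (32.3% and 26.1% against 45.7% and 48.4%) than the WT-only bars (40.7% and 32.8% against 40.9% and 39.0%).

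The full pattern, open in both Dox libraries of 1 line and neither of the other, was rare. It went the K303R way in 2609 of all merged regions (5.35%) and the WT way in 705 (1.44%). Among K303R-only regions it went the K303R way in 156 (10.8%, against 5.35% of all) and the WT way in 27 (1.88%). On chromosomes 8 and 10 it was 40 of 242 and 0, where 9.25% of all merged regions went the K303R way and 0.504% the WT way. Among WT-only regions it went the WT way in 51 (3.16%, against 1.44% of all) and the K303R way in 67 (4.16%), and on chromosome 15 in 8 and 2 of 96. Counting every listed peak, 72 K303R-only regions had no peak in any of the 4 WT libraries and 42 of these had one in all 4 K303R libraries. Of WT-only regions 30 had no peak in any K303R library and 1 of these had one in all 4 WT libraries, inside HOMER2, a postsynaptic scaffold protein on chromosome 15 (chr15:82849600-82850010), with 4, 11, 5 and 7 reads in WT untreated, E2, Dox and Dox plus E2. The K303R Dox lists were longer (97243 and 102713 summits) than the WT Dox lists (82091 and 64476), and the part of list length in these last counts was not tested. No share of all merged regions is given beside these last counts.

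Gene groups of breast and receptor biology were described by the number of members with a line-specific region within 50 kb of the gene, beside 12.6% of all 19974 coding genes with a K303R-only and 14.7% with a WT-only region. Estrogen response genes were close to that: of 30, 3 had a K303R-only region (CCND1, STC2 and CELSR2) and 5 a WT-only region (IGFBP4, NRIP1, KRT13, ADCY9 and IL17RB). The region inside NRIP1, a receptor corepressor and classic estrogen target, had 5 and 9 reads in WT and no listed peak in either K303R library without Dox. Its WT E2 peak of 9 reads was tied at the list limit and kept by the random draw. Of 24 androgen response and apocrine genes, 2 (FKBP5 and NDRG1) had a K303R-only and 4 (SORD, SEC14L2, FASN and CAMKK2) a WT-only region. Of 18 luminal transcription factors, 2 (TFAP2C and ESRRG) had a K303R-only and 2 (TFAP2B among them) a WT-only region.

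Growth factor receptor genes had higher counts in both directions, 9 and 7 of 31, with a median of 7 merged regions within 50 kb against 4 for all coding genes. On the K303R side were ERBB2, ERBB4, FGFR1, FGFR2, FGFR3, FGFR4, ROR1, DDR2 and EPHA2, and the WT side included ERBB3, MET, PDGFRA, DDR1, FGFR4 and EPHA2. All 4 FGFR genes, which encode the fibroblast growth factor receptors, had a K303R-only region, and FGFR1 lies on chromosome 8 and FGFR2 on chromosome 10. Of 24 AP-1 and immediate early genes, 5 (FOS, FOSB, FOSL1, JUNB and MAFK) had a K303R-only and 5 (JUND, IER3, MAFK, BATF and NR4A2) a WT-only region. Cadherins and protocadherins had 5 and 1 of 34, interferon and antigen presentation genes 1 and 1 of 26, and cancer-testis genes 0 and 1 of 26. The HOX counts, 7 and 9 of 39, came from neighbouring genes that share a region, HOXB3 to HOXB9 for K303R and HOXC4 to HOXC13 for WT. Housekeeping genes had 7 and 3 of 24, with a median of 7.5 merged regions. Luminal markers had 1 and 5 of 16 (ERBB2, and MLPH, KRT8, KRT18, TFAP2B and CLDN4, where KRT8 and KRT18 share a region), basal markers 2 and 1 of 20, immune markers 0 and 1 of 12, and fibroblast or endothelial markers 0 and 0 of 13. These counts moved with the treatment of list length. With every listed peak, 1120 of all coding genes had a K303R-only and 4874 a WT-only region, and the K303R-only and WT-only counts were 0 and 9 for estrogen response genes, 5 and 10 for growth factor receptors and 1 and 10 for AP-1 genes. Cadherins and protocadherins then had 1 and 7 and housekeeping genes 3 and 8, so the order of the classes turned in both.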

How the data were processed

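ATAC-seq peak lists of 12 libraries were used, 1 per line and treatment, so no comparison has replicates. The submitters' processing notes name Bowtie2, SAMtools, Picard, FastQC and MACS2 with build hg38, and give no versions or settings in the sources used here. The authors deposited, per summit, a score, a fold enrichment (ratio over background), and −log10 p and −log10 q values. Summit pileups were recovered here from the deposited fold alone, as the whole read count that gives it with 1 background per library (farthest from whole, 0.000845). The deposited −log10 p was compared afterwards, on part of the summits, with a Poisson tail over that background. The largest median difference of a library was 3.34e-05 (K303R E2).

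Each list was cut to 39522 summits by −log10 p, with ties at the limit drawn at random (seed 1), because file order would favour some chromosomes. Peak intervals were merged at 1 bp overlap. A gene is that whose RefSeq (GRCh38.p14) span holds the strongest summit, or the nearest coding gene end within 100 kb. All 14 gene lists matched in full.

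The members, gene lists and rules were chosen with earlier results of these data known. Named were the 12 strongest regions per direction, the 8 genes with most regions, the 5 windows of 5 Mb (at least 30 regions) with the largest share, and the 8 strongest promoters; some genes these rules name are not reported here. Alternatives changed the list length, ranking, merging, thresholds, tie handling, gene window and libraries. The counting was tested on simulated data with large differences between the lines, so its recovery of weak line-specific regions was not tested. Python 3.11.15, numpy 2.4.6, pandas 2.3.3 and scipy 1.17.1 were used.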

Additional observations from a re-analysis of the deposited data

How the results depend on the processing

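Counts of line-specific regions depended on how lists of unequal length were treated. K303R-only and WT-only regions numbered 571 and 3131 with every listed peak, so WT-only outnumbered K303R-only by far, 910 and 845 with the 20000 strongest peaks, 220 and 324 at a −log10 q of at least 10, and 188 and 498 when absence meant no listed peak of any strength. At a −log10 q of at least 5 they were 379 and 2138. Without 1 library the counts grew, as fewer libraries must satisfy the rule: without WT untreated 2828 and 4228, without WT E2 3337 and 8746, without K303R untreated 4697 and 3098, and without K303R E2 7660 and 3488. Redrawing the ties at the list limit 20 times, an alternative added after the data were seen like the other tie settings, gave 1420 to 1472 and 1587 to 1649. Keeping all tied peaks gave 1536 and 1671, and dropping them gave 1643 and 1263, so the order of the classes turned. Without the cut the K303R-only share was 2.05% on chromosome 8 and 1.46% on chromosome 10. Level differences kept their direction in the alternatives tried. On chromosome 8 the E2 pair was 0.32 from deposited fold enrichments, and summed pileups gave 0.34 (E2), 0.45 (Dox) and 0.47 (Dox plus E2). Not taken relative to all chromosomes, the medians were 0.21 (untreated), 0.34 (E2) and 0.35 (Dox plus E2) on chromosome 8, 0.052 on chromosome 10 (untreated) and -0.26 on chromosome 15 (untreated). Of single gene-list and library values 64 moved and 42 did not. Pileups of a few reads limit single regions.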
